A study of Mus musculus with 6 samples.

Results

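Transcripts of the unfolded protein response and the integrated stress response were described in E0771 cells, a mouse mammary carcinoma line, after contact with activated CD8 T cells. The set holds 37 genes chosen by symbol: 14 endoplasmic reticulum (ER) chaperones and folding factors, 5 genes of ER-associated degradation (ERAD) and protein translocation, the 3 ER stress sensors with Xbp1, and 14 genes of the ATF4 arm. A row of counts was found for 36 of the 37 among 28063 genes, and all 36 passed the filter on low counts. The level of Vldlr was not analysed here, and this gene appears only in the promoter search.

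The 6 libraries form 3 groups of 2. Vector cells carried the vector control, Malt1_WT cells expressed the wild-type form of Malt1, and Malt1_PD cells expressed a mutant whose abbreviation, PD, is left unexplained by the labels. Malt1 encodes a paracaspase that acts as a scaffold and cuts substrates in signalling towards NF-kB. In every group the tumour cells had met activated CD8 T cells at 3 effector cells per target cell. After 12 hours of co-culture they were washed, taken up by trypsin and plated once more, and lysis followed 6 hours after that. Contact with T cells and detachment are thus common to all groups, and no library without T cells was analysed here. The labels do not say how Malt1 was introduced, whether a population is 1 clone, or whether replicate libraries stem from different cultures. P-values therefore reflect only how far the replicate libraries lie apart, a spread that may be technical.

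When misfolded proteins accumulate in the ER, 3 membrane sensors respond. ATF6 is cut to a transcription factor and IRE1 (Ern1) splices Xbp1 mRNA, and both branches raise chaperone and ERAD genes. PERK (Eif2ak3) phosphorylates eIF2alpha, which lowers general translation and favours translation of ATF4. ATF4 is also the shared output of the amino acid, haem and viral RNA kinases of the integrated stress response, and it raises genes of amino acid synthesis and transport together with the stress factors CHOP (Ddit3), TRIB3 and CHAC1. The ER chaperone arm and the ATF4 arm can therefore move together or apart, and the comparison of the arms asks which occurred.

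The arms differ in the full motifs found in their promoter windows. RefSeq promoter windows (build GRCm38.p6, 250 bases before to 50 after the annotated start) were found for 33 of the 37 genes, and not for Hyou1, Manf, Derl1 and Atf6. The ER stress response element was searched as CCAAT, 9 further bases and CCACG, on both strands. It was found in 7 of 12 windows of ER chaperones (Hspa5, Hsp90b1, Pdia6, Calr, Canx, Dnajc3 and Creld2), in 0 of 14 of the ATF4 arm, in 0 of 4 of the ERAD group and in 0 of 3 of the sensors and Xbp1. Across all 27025 genes with a window the element was found in 0.137%. The core of the C/EBP-ATF response element was searched as TGATGNAA on both strands, and it was found in 4 of 14 genes of the ATF4 arm (Asns, Chac1, Trib3 and Vldlr), in Herpud1, and in 0 of 12 ER chaperones, against 4.51% of all genes with a window. The stretches below carry these matches, in capitals, with 5 or 40 bases on each side, written 5′ to 3′ along the gene. Hspa5, Hsp90b1, Pdia6 and Canx stand for the chaperones, and Chac1, Asns and Herpud1 for the other motif.
Hspa5 (chr2:34772020-34772048, plus strand): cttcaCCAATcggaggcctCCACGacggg
Hsp90b1 (chr10:86705528-86705661, minus strand): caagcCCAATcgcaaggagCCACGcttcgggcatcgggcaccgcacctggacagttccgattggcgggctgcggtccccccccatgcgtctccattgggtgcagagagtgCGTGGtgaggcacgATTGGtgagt
Pdia6 (chr12:17266486-17266514, plus strand): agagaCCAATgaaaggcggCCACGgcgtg
Canx (chr11:50325760-50325858, minus strand): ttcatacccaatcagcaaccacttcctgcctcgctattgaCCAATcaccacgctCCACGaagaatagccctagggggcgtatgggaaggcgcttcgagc
Chac1 (chr2:119351009-119351096, plus strand): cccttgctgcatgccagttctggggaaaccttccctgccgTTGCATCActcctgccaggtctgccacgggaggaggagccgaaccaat
Asns (chr6:7693220-7693237, minus strand): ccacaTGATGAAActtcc
Herpud1 (chr8:94386277-94386364, plus strand): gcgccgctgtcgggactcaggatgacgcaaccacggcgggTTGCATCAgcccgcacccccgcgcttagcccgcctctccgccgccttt
Hsp90b1 holds the element both ways round, at 212 to 194 and at 107 to 89 bases before the start, and Hspa5 holds it at 65 to 47 bases before the RefSeq start. The stretches of Hspa5 and Asns overlap an annotated exon, and that of Hspa5 lies after the start of the gene in GENCODE M21, which differs from the RefSeq start. The 8 elements of the 7 chaperones begin between 212 and 65 bases before the start. In Trib3 the C/EBP-ATF core lies after the start, at base 14 to 21. Herpud1 also holds ATTGG at 52 to 48 and CCACG at 46 to 42 bases before the start, an arrangement outside the form searched. A match describes letters in a window. It was not tested whether a factor binds there.

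**Figure D1:**
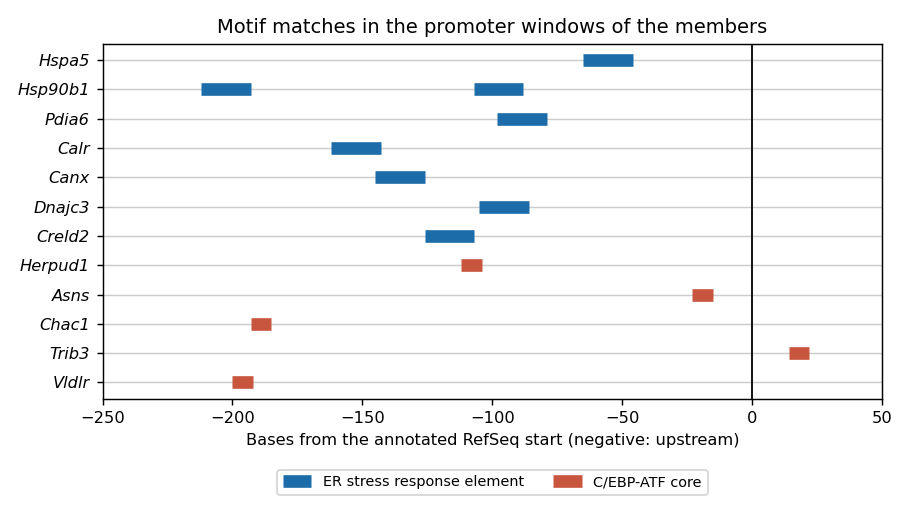
Positions of the motif matches in the promoter windows, with the distance from the annotated start in bases on the x axis (negative is upstream) and 1 line per gene. The ER stress response element (blue), in the form searched, appears on 7 lines, all of them ER chaperones. The C/EBP-ATF core (red) appears on the lines of Herpud1, Asns, Chac1, Trib3 and Vldlr.

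Total counts per library ran from 14045390 to 19962014, and the fewest counts of a member in a library were 148, for Chac1. As a check of the labels, Malt1 stood at 23.8 and 31.3 CPM (counts scaled to library size, with TMM factors) in Vector, 67.2 and 82.1 in Malt1_WT, and 106 and 95.7 in Malt1_PD, with log2 fold changes against Vector of 1.44 (edgeR adjusted p = 0.0920) and 1.87 (edgeR adjusted p = 0.0265). Between the forms the log2 fold change of Malt1 was 0.43 (edgeR adjusted p = 1.00). Of 10 T cell markers 8 had a row, and they summed to 2.30 to 2.36 CPM in Vector, 1.49 to 2.14 in Malt1_WT and 2.21 to 2.26 in Malt1_PD, most of it Lck. Cd8a had 1 count in 1 library and 0 in the others. Of 5 mammary epithelial markers Krt8 stood at 108 to 124 CPM and Epcam at 6.16 to 8.97, whereas Krt18, Krt19 and Cdh1 lay below 1 CPM. The 5 summed to 119 to 133 CPM in Vector, 116 to 134 in Malt1_WT and 120 to 126 in Malt1_PD. The 4 mesenchymal markers, mainly Vim, summed to 4337 to 4736 CPM in Vector, 4107 to 4298 in Malt1_WT and 3911 to 3994 in Malt1_PD. This order is that of Vim and not of the list. Col1a1 ran the other way, at 31.0 and 36.4 CPM in Vector, 54.8 and 61.3 in Malt1_WT, and 56.8 and 53.0 in Malt1_PD. Zeb1 stood at 59.3 and 84.0 CPM in Vector with the other libraries between, and Fn1 lay below 0.18 CPM. The part of all these markers in the results was not tested.

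The libraries of a group also differed from each other by gene length. In Vector, replicate 1 minus replicate 2 fell with length with a Spearman rho of -0.67 across 9541 genes. In Malt1_WT rho was -0.53, and in Malt1_PD it was 0.05. These genes share their libraries and are not independent replicates. Among the 36 members rho was -0.62 in Vector, -0.29 in Malt1_WT and 0.08 in Malt1_PD. The short members Sdf2l1 (1108 nt), Sec61b (1271 nt) and Ddit3 (1713 nt) read higher in Vector replicate 1, and the long members Sel1l (8555 nt), Ern1 (8173 nt) and Atf6 (9231 nt) read higher in Vector replicate 2. Not every member followed this order, since Atf5 (1993 nt) read higher in replicate 2, by 0.15 on the log2 scale. The arms differ in length: the median was 2358 nt in the ATF4 arm, 3380 nt in the ER chaperones and 7100 nt in the sensors and Xbp1, against 3738 nt over all genes tested.

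**Figure D2:**
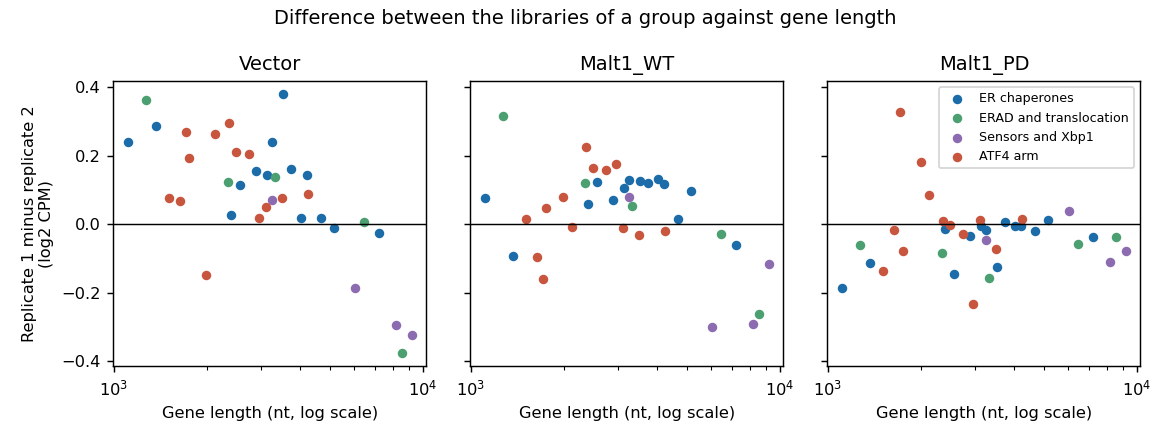
Difference between replicate 1 and replicate 2 of each group (y axis, log2 CPM) against gene length (x axis, nt, log scale), with 1 point per member, coloured by arm. In Vector the points run from above 0 for short genes to below 0 for long genes, with a rho of -0.62 over the 36 members, whereas in Malt1_PD rho is 0.08.

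Transcripts of both arms were abundant in every group. By length-scaled level (RPKM, counts scaled by gene length and library size) in Vector, the highest members were the chaperone Calr at 304 ± 23.2 (SD, n = 2), the disulphide isomerase Pdia3 at 273 ± 19.4, the central ER chaperone Hspa5 at 257 ± 18.2, and the serine synthesis enzyme Phgdh at 241 ± 25.0. Atf4 followed at 208 ± 30.2 RPKM, with Hsp90b1 at 207 ± 1.75, Pdia6 at 204 ± 16.2 and Canx at 188 ± 1.75. The ranges of mean ± SD of neighbours in this order overlapped. At the other end stood Chac1 at 9.11 ± 0.298 RPKM, then, apart from it, the sensor Eif2ak3 at 6.94 ± 0.635, Atf5 at 6.31 ± 0.456 and the sensor Ern1 at 5.69 ± 0.816, whose ranges overlapped in turn. The third sensor, Atf6, stood at 11.7 ± 1.84 RPKM and Ddit3 at 10.5 ± 1.38. The arms thus overlap across the range of levels, and the stress factors Ddit3, Chac1 and Atf5 lie among the lowest members beside the sensors.

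**Figure D3:**
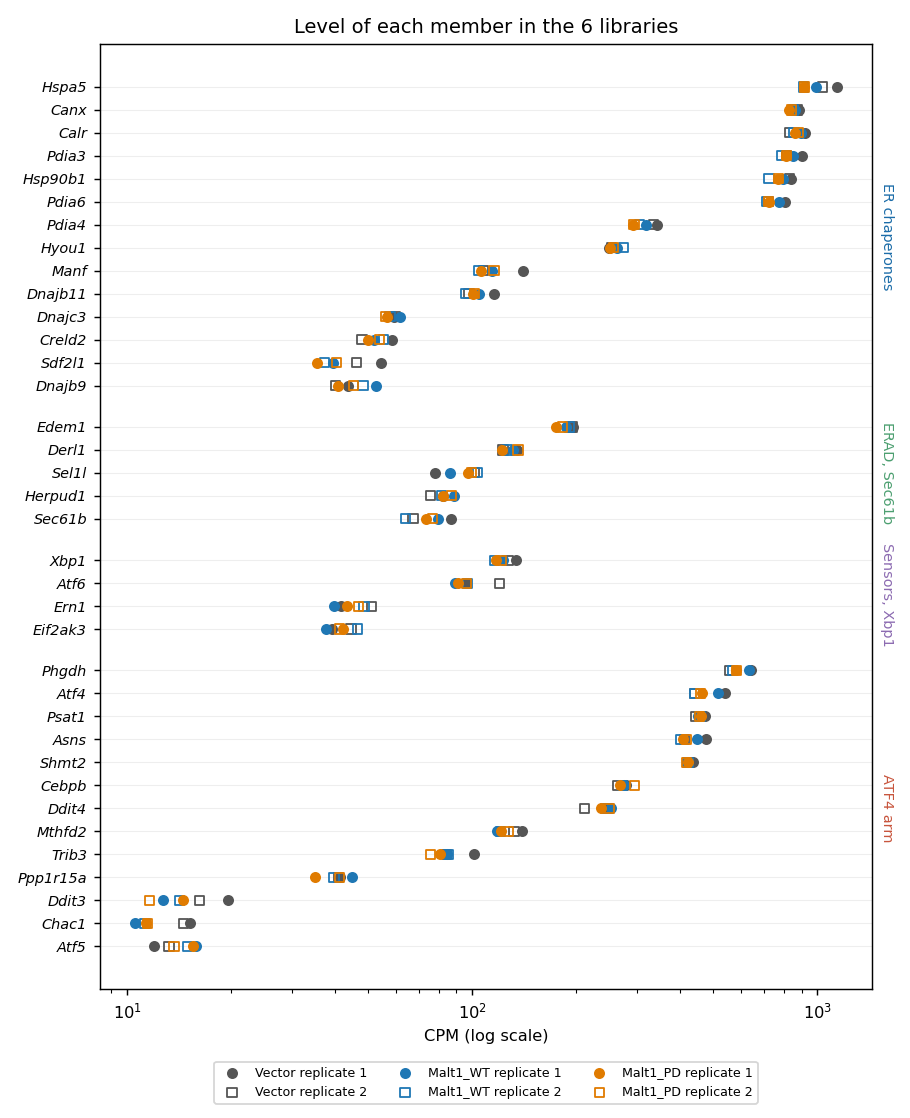
Level of each of the 36 members (CPM, log x axis) in the 6 libraries, grouped by arm and ordered by level, with circles for replicate 1 and open squares for replicate 2 of each group. For Sdf2l1, Ddit3 and Chac1 both Vector symbols lie to the right of the other 4, and for Atf5 both lie to the left.

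No member passed the test in any of the 4 comparisons, and differences between groups were small. Counts were tested gene by gene with edgeR's quasi-likelihood test over 14675 genes, and a gene was called at a Benjamini-Hochberg adjusted p under 0.05. In Malt1_WT against Vector 0 of 36 members were called, against 0.00681% of all genes, and in Malt1_PD against Vector 0 of 36, also against 0.00681%. The 2 comparisons share the Vector libraries, so their values stand side by side and do not support each other. In Malt1_PD against Malt1_WT 0 of 36 were called, against 0.00681% of all genes, and in the mean of both Malt1 forms against Vector 0 of 36, against 0.0273%. DESeq2 and limma-voom also called 0 members in each comparison. In the edgeR fit of all 6 libraries the genes called were Cd274, Malt1, Ptgs1 and Mmp3. Each member's level varied by 1.04 (Shmt2) to 1.69 (Ddit3) times between its lowest and highest library.

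With all 6 libraries more members lay below Vector than above it, and this rests on Vector replicate 1. Without that library 15 of 36 members lay below 0 in Malt1_WT, 19 in Malt1_PD and 18 for both forms. With all libraries, in Malt1_WT against Vector 23 of 36 members had a log2 fold change below 0, with a median of -0.04, against a median of -0.0012 over all genes. At an unadjusted p under 0.05, 1 member was higher (3.30% of all genes) and 5 were lower (3.80% of all genes). The libraries of the groups did not overlap for 4 members higher (15.5% of all genes) and 10 lower (17.1% of all genes). In Malt1_PD against Vector 28 of 36 lay below 0, with a median of -0.08 against -0.0011 over all genes. There 0 members were higher at an unadjusted p under 0.05 (3.73% of all genes) and 6 were lower (4.88% of all genes), and libraries did not overlap for 2 higher (18.4% of all genes) and 13 lower (19.7% of all genes). In the mean of both forms against Vector 28 of 36 lay below 0, with a median of -0.06 against -0.0026. In that contrast 0 members were higher at an unadjusted p under 0.05 (4.45% of all genes) and 5 were lower (5.40% of all genes), and libraries did not overlap for 1 higher (9.74% of all genes) and 10 lower (10.8% of all genes). With a length trend removed from each library, 21 of 36 members lay below 0 in Malt1_WT, 25 in Malt1_PD and 22 for both forms. In bulk libraries less RNA of a gene per cell and fewer cells that express it cannot be told apart.

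**Figure D4:**
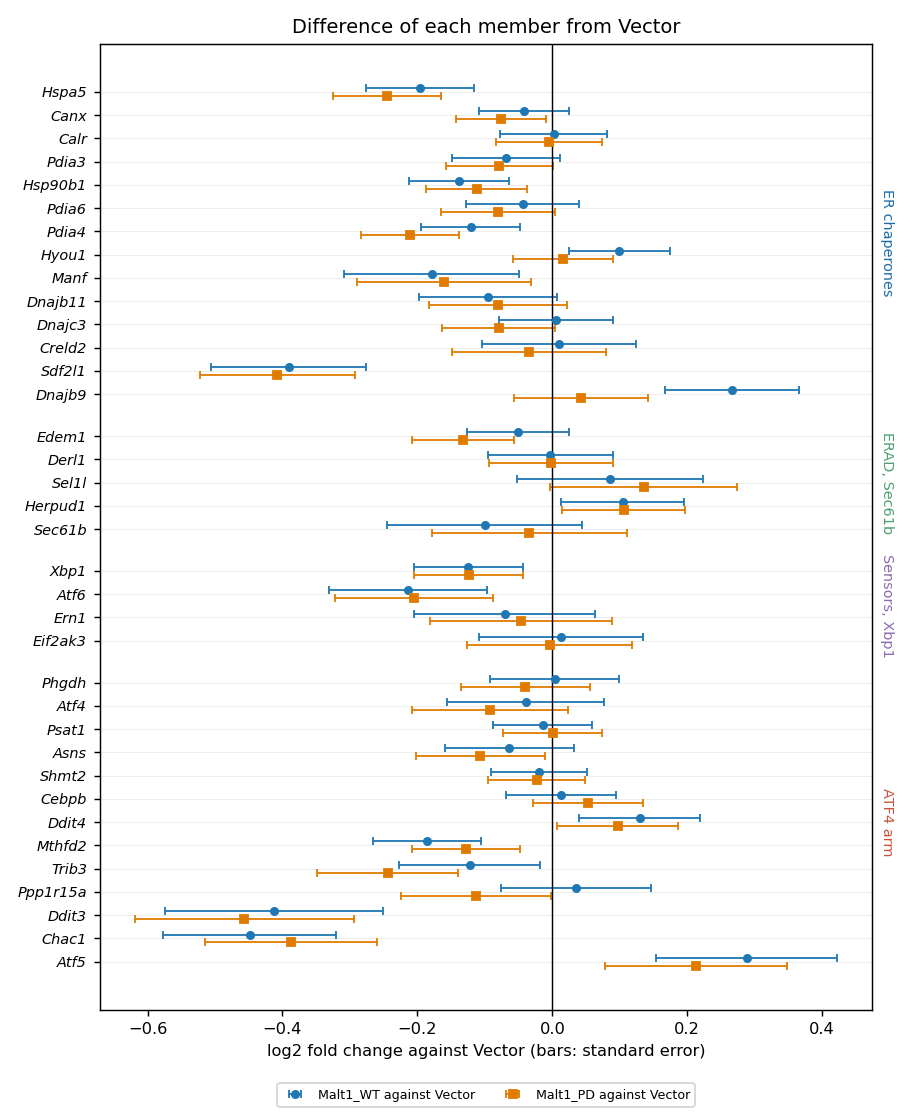
Log2 fold change of each of the 36 members against Vector (x axis) in Malt1_WT (blue circles) and Malt1_PD (orange squares), with bars of 1 standard error. Both comparisons use the same Vector libraries; Sdf2l1, Ddit3 and Chac1 lie farthest to the left, near -0.4, and Atf5 farthest to the right in Malt1_WT, at 0.29.

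Among the sensors, Atf6 showed the largest difference. Atf6 (chr1:170704674-170867771, minus strand) encodes the sensor that becomes a transcription factor after cleavage. It stood at 96.0 and 120 CPM in Vector, 89.4 and 96.9 in Malt1_WT, and 91.2 and 96.3 in Malt1_PD. Vector replicate 2 stood apart, and Vector replicate 1 lay within the range of the other libraries. The log2 fold change was -0.21 ± 0.12 (SE) in Malt1_WT and -0.21 ± 0.12 in Malt1_PD, and -0.21 ± 0.10 for both forms (edgeR adjusted p = 0.551). Without Vector replicate 1 the value for both forms was -0.36 ± 0.08 and was called (edgeR adjusted p = 0.0436), in a fit that called 201 of 15327 genes. Without Vector replicate 2 it was -0.03, so this call rests on 1 library.

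Xbp1, the transcription factor that IRE1 activates by splicing, stood at 133 and 127 CPM in Vector, 123 and 116 in Malt1_WT, and 118 and 121 in Malt1_PD. The Vector libraries were the highest pair, and the fold change for both forms was -0.12 ± 0.07 (edgeR adjusted p = 0.612). Counts per gene do not separate spliced from unspliced Xbp1. Ern1, which encodes IRE1, stood at 41.8 and 51.2 CPM in Vector, 39.7 and 48.6 in Malt1_WT, and 43.3 and 46.7 in Malt1_PD, and its groups overlapped. The log2 fold change of Ern1 for both forms was -0.06 ± 0.12, and it was 0.10 without Vector replicate 2. Eif2ak3, which encodes PERK, stood at 39.1 and 44.5 CPM in Vector, 37.7 and 46.4 in Malt1_WT, and 42.3 and 41.2 in Malt1_PD, and its log2 fold change for both forms was 0.0042 ± 0.11. For Ern1 and Eif2ak3 the libraries of a group differed by more than the groups.

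Within the ER chaperone arm, Hspa5, Sdf2l1, Pdia4, Hsp90b1 and Canx read lower in both Malt1 forms than in either Vector library. These are 5 of 14 chaperones (35.7%), against 10.8% of all genes. For both forms against Vector 12 of 14 chaperones (85.7%) lay below 0, against 50.5% of all genes. None of the 14 passed the test. The median of the arm for both forms was -0.07, beside -0.0026 over all genes. It was 0.01 without Vector replicate 1 and -0.14 without Vector replicate 2, so its size and sign rest on which Vector library is used. With a length trend removed from each library, 10 of 14 chaperones lay below 0 for both forms, against 7384 of 14675 genes.

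Hspa5 (chr2:34771970-34777547, plus strand) encodes BiP, the chaperone that binds the sensors until unfolded proteins draw it away. It stood at 1142 and 1033 CPM in Vector, 988 and 910 in Malt1_WT, and 916 and 920 in Malt1_PD. Both Vector libraries lay above the other 4. The log2 fold change was -0.20 ± 0.08 in Malt1_WT and -0.24 ± 0.08 in Malt1_PD, and -0.22 ± 0.07 for both forms (edgeR unadjusted p = 0.0124, adjusted p = 0.361). The value kept its sign in all 13 alternative fits of that contrast, between -0.29 and -0.15. Without Vector replicate 2 it was -0.29 ± 0.07 and was called (edgeR adjusted p = 0.0189), in a fit that called 1202 of 15336 genes.

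Sdf2l1 (chr16:17130138-17132383, minus strand), an ER protein that works with BiP and its DnaJ partners, showed the largest difference of the arm. It stood at 54.5 and 46.2 CPM in Vector, 39.4 and 37.4 in Malt1_WT, and 35.5 and 40.4 in Malt1_PD. The Vector libraries again lay above the other 4, and the log2 fold change was -0.39 ± 0.11 in Malt1_WT, -0.41 ± 0.11 in Malt1_PD and -0.40 ± 0.10 for both forms (edgeR unadjusted p = 0.0035, adjusted p = 0.238). It was called for both forms without the low-count filter (-0.39 ± 0.11, edgeR adjusted p = 0.0265), with a length trend removed from each library (-0.39 ± 0.08, edgeR adjusted p = 0.0405) and without Vector replicate 2 (-0.51 ± 0.10, edgeR adjusted p = 0.0079), where 255 of 28063, 210 of 14675 and 1202 of 15336 genes were called. Without Vector replicate 1 it was -0.28 (edgeR adjusted p = 0.208). Sdf2l1 is the shortest member.

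Pdia4, a disulphide isomerase, stood at 342 and 336 CPM in Vector, 318 and 305 in Malt1_WT, and 291 and 294 in Malt1_PD. The 3 groups did not overlap each other, and the fold change was -0.12 ± 0.07 in Malt1_WT and -0.21 ± 0.07 in Malt1_PD, and -0.17 ± 0.06 for both forms (edgeR adjusted p = 0.448). Hsp90b1 (chr10:86690209-86705509, minus strand), the ER member of the HSP90 family, stood at 839 and 829 CPM in Vector, 793 and 724 in Malt1_WT, and 770 and 773 in Malt1_PD. Its log2 fold change for both forms was -0.13 ± 0.06 (edgeR adjusted p = 0.578), with the Vector pair above the other 4 libraries.

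The remaining chaperones differed less, or their groups overlapped. Manf, a secreted ER stress factor, stood at 140 CPM in Vector replicate 1, and the other 5 libraries lay between 105 and 116. Its log2 fold change for both forms was -0.17 ± 0.11, and without Vector replicate 2 it was -0.34. Manf is less certain than other members, since it overlaps Rbm15b on the same strand and Dcaf1 on the other. Canx, the membrane lectin chaperone, stood at 887 and 875 CPM in Vector, 860 and 851 in Malt1_WT, and 829 and 842 in Malt1_PD, a log2 fold change of -0.06 ± 0.06 for both forms. Calr, its soluble partner, stood at 923 and 828 CPM in Vector, 898 and 855 in Malt1_WT, and 862 and 883 in Malt1_PD, with a log2 fold change of -0.0016 ± 0.07. The isomerases Pdia3 (-0.07 ± 0.07) and Pdia6 (-0.06 ± 0.07) and the BiP co-chaperones Dnajb11 (-0.09 ± 0.09) and Dnajc3 (-0.04 ± 0.07) lay within about 1 standard error of 0 in log2 fold change for both forms. Creld2, an isomerase-like ER protein, was at -0.01 ± 0.10.

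A pair of chaperone genes lay on the other side of 0. Dnajb9, a BiP co-chaperone that is a target of XBP1, stood at 43.5 and 40.2 CPM in Vector, 52.5 and 48.3 in Malt1_WT, and 40.9 and 45.3 in Malt1_PD. The Malt1_WT libraries were the highest pair, and the Malt1_PD libraries overlapped with Vector, and the log2 fold change was 0.27 ± 0.10 in Malt1_WT (edgeR unadjusted p = 0.0279, adjusted p = 0.635) and 0.04 ± 0.10 in Malt1_PD. Hyou1, a nucleotide exchange factor and chaperone, stood at 249 and 253 CPM in Vector, 263 and 275 in Malt1_WT, and 251 and 257 in Malt1_PD, and its fold change for both forms was 0.06 ± 0.06.

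The ERAD and translocation genes centred on 0. Their median log2 fold change for both forms was -0.0026, the same as over all genes, and 0 of 5 passed the test. Without Vector replicate 1 the median was 0.07, and without Vector replicate 2 it was -0.06. Herpud1, a scaffold of the degradation complex, stood at 82.2 and 75.5 CPM in Vector, 88.3 and 81.3 in Malt1_WT, and 82.4 and 87.3 in Malt1_PD. In Malt1_PD it lay above both Vector libraries by a small margin, and the fold change for both forms was 0.11 ± 0.08 (edgeR adjusted p = 0.719). Edem1, which hands misfolded glycoproteins to degradation, stood at 196 and 195 CPM in Vector, 187 and 191 in Malt1_WT, and 175 and 182 in Malt1_PD. It had the highest values in Vector, with a fold change of -0.09 ± 0.06. Sel1l, the partner of the HRD1 ligase, stood at 78.0 and 101 CPM in Vector, and the other 4 libraries lay between 86.3 and 104. Sec61b, a subunit of the translocation channel, stood at 86.6 and 67.3 CPM in Vector, 79.8 and 64.1 in Malt1_WT, and 73.6 and 76.7 in Malt1_PD. Both genes differed more within Vector than between groups. Derl1, a channel protein of ERAD, stood at 122 to 136 CPM in the 6 libraries.

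In the ATF4 arm the stress factors Ddit3 and Chac1 read lower in both Malt1 forms, Atf5 read higher, and the enzymes of serine and one-carbon metabolism differed little, apart from Mthfd2. None of the 13 passed the test. For both forms 10 of 13 members (76.9%) lay below 0, against 50.5% of all genes, and the median of the arm was -0.04. It was 0.02 without Vector replicate 1 and -0.12 without Vector replicate 2. With a length trend removed from each library, 7 of 13 members of the arm lay below 0 for both forms, against 7384 of 14675 genes. Atf4 itself (chr15:80255184-80257541, plus strand) stood at 541 and 441 CPM in Vector, 515 and 440 in Malt1_WT, and 462 and 459 in Malt1_PD. Replicate 1 lay above replicate 2 in Vector and in Malt1_WT, and all groups overlapped. The log2 fold change of Atf4 for both forms was -0.07 ± 0.10, and without Vector replicate 1 it was 0.09. ATF4 is regulated mainly in translation, which these libraries do not measure.

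Ddit3 (chr10:127290774-127296288, plus strand) encodes CHOP, a transcription factor linked to death under prolonged ER stress. It stood at 19.6 and 16.2 CPM in Vector, 12.7 and 14.2 in Malt1_WT, and 14.6 and 11.6 in Malt1_PD. Both Vector libraries lay above the other 4, and the log2 fold change was -0.41 ± 0.16 in Malt1_WT, -0.46 ± 0.16 in Malt1_PD and -0.43 ± 0.14 for both forms (edgeR unadjusted p = 0.0135, adjusted p = 0.376). Without Vector replicate 2 the value for both forms was -0.56, and without Vector replicate 1 it was -0.29. Ddit3 overlaps Mars, on the other strand, only where the last bases of both genes meet. Mars, on the minus strand, ends at 127296221, and Ddit3 ends at 127296288. Mars averaged 186 CPM against 14.8 for Ddit3. Reads from that shared end may not be separated, since the strand setting of the counting is not given in the sources used here.

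Chac1 (chr2:119351229-119354381, plus strand) encodes a glutathione-degrading enzyme downstream of ATF4 and CHOP. It stood at 15.3 and 14.6 CPM in Vector, 10.5 and 11.3 in Malt1_WT, and 11.3 and 11.5 in Malt1_PD. The Vector pair stood apart from the other 4 libraries, which lay close together. The log2 fold change was -0.45 ± 0.13 in Malt1_WT, -0.39 ± 0.13 in Malt1_PD and -0.42 ± 0.11 for both forms (edgeR unadjusted p = 0.0049, adjusted p = 0.257). The value for both forms lay between -0.45 and -0.36 in the 13 alternative fits, and 0 of them called it. Trib3, a pseudokinase that dampens ATF4 activity, stood at 101 and 84.1 CPM in Vector, 84.8 and 85.2 in Malt1_WT, and 80.5 and 75.8 in Malt1_PD. Its fold change was -0.12 ± 0.10 in Malt1_WT and -0.24 ± 0.10 in Malt1_PD (edgeR unadjusted p = 0.0476, adjusted p = 0.576). With libraries left out its value in Malt1_PD ranged from -0.36 to -0.10.

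Of the other regulators of the arm, Atf5 and Ddit4 lay above 0 in both comparisons with Vector, and Ppp1r15a lay on either side. Atf5 (chr7:44812256-44816658, minus strand), a transcription factor translated under eIF2alpha phosphorylation, stood at 11.9 and 13.2 CPM in Vector, 15.8 and 15.0 in Malt1_WT, and 15.5 and 13.7 in Malt1_PD. The Vector libraries were the lowest pair, and the log2 fold change for both forms was 0.25 ± 0.12 (edgeR adjusted p = 0.538). Atf5 overlaps Nup62 on the other strand, which averaged 136 CPM against 14.2 for Atf5. Ddit4, an inhibitor of mTORC1, stood at 242 and 212 CPM in Vector, 252 and 244 in Malt1_WT, and 236 and 249 in Malt1_PD, with a fold change of 0.11 ± 0.08. Ppp1r15a (GADD34), the subunit that directs dephosphorylation of eIF2alpha, stood at 41.5 and 41.0 CPM in Vector, 44.9 and 39.8 in Malt1_WT, and 35.0 and 41.2 in Malt1_PD, with a fold change of 0.04 ± 0.11 in Malt1_WT and -0.11 ± 0.11 in Malt1_PD. Cebpb, a partner of ATF4, lay between 264 and 294 CPM in the 6 libraries, and it overlaps Tmem189.

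Among the enzymes of amino acid supply, Shmt2 and Psat1 had the smallest ratio of highest to lowest library of all 36 members, at 1.04 and 1.06. Phgdh (1.16), Mthfd2 (1.18) and Asns (1.18) varied more. Psat1 (444 to 472 CPM) and Phgdh (555 to 643 CPM) make serine, and Shmt2 (419 to 435 CPM) passes its carbon to the mitochondrial folate cycle. Their log2 fold changes for both forms were -0.0070 ± 0.06, -0.02 ± 0.08 and -0.02 ± 0.06. Asns, which makes asparagine, stood at 476 and 413 CPM in Vector, 448 and 402 in Malt1_WT, and 408 and 417 in Malt1_PD, a fold change of -0.09 ± 0.08. Mthfd2, the next enzyme of the mitochondrial folate cycle, stood at 139 and 132 CPM in Vector, 118 and 121 in Malt1_WT, and 121 and 127 in Malt1_PD. The Vector libraries of Mthfd2 were the highest pair, and the log2 fold change was -0.19 ± 0.08 in Malt1_WT (edgeR unadjusted p = 0.0493, adjusted p = 0.700) and -0.13 ± 0.08 in Malt1_PD.

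By the members listed here, the ER chaperone arm and the ATF4 arm ran closely side by side across the libraries. The deviation of a library from the mean of the 6, as a median over the members of an arm in log2 CPM, was 0.12 and -0.03 for the chaperones in Vector, 0.02 and -0.05 in Malt1_WT, and -0.05 and -0.03 in Malt1_PD. For the ATF4 arm it was 0.12 and -0.04 in Vector, -9.8e-05 and -0.02 in Malt1_WT, and -0.04 and -0.02 in Malt1_PD. In both arms Vector replicate 1 was the highest library, and Vector replicate 2 lay within or near the range of the other 4. The ATF4 arm minus the chaperone arm came to -0.0048 and -0.015 in Vector, -0.024 and 0.027 in Malt1_WT, and 0.010 and 0.00088 in Malt1_PD. The 2 libraries of Malt1_WT span the whole range, so the groups did not separate by this difference. The parallel did not extend to every list of ATF4 target genes described below. The further amino acid supply genes, with a median length of 4251 nt, deviated by -0.03 and 0.09 in Vector. The further regulators and stress factors deviated by 0.14 and 0.07 there, and the aminoacyl-tRNA synthetase genes by 0.05 and 0.06.

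Summed over their members, the chaperones took 6562 and 6091 CPM in Vector, 6165 and 5818 in Malt1_WT, and 5845 and 5917 in Malt1_PD. The ATF4 arm took 3416 and 3049 CPM in Vector, 3283 and 3091 in Malt1_WT, and 3118 and 3157 in Malt1_PD. The ratio of the sums was 1.92 and 2.0 in Vector and 1.87 to 1.88 in the other 4 libraries. These sums are led by a few abundant members, and the ratio has no test. The sensors and Xbp1 ran the other way from the arms within Vector, with deviations of -0.06 in replicate 1 and 0.14 in replicate 2. These are mostly long genes, and how much of these library differences follows gene length was not tested apart from the fit with the length trend removed. In that fit the median for both forms was -0.05 for the chaperones, -0.01 for the ATF4 arm and -0.09 for the sensors and Xbp1.

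**Figure D5:**
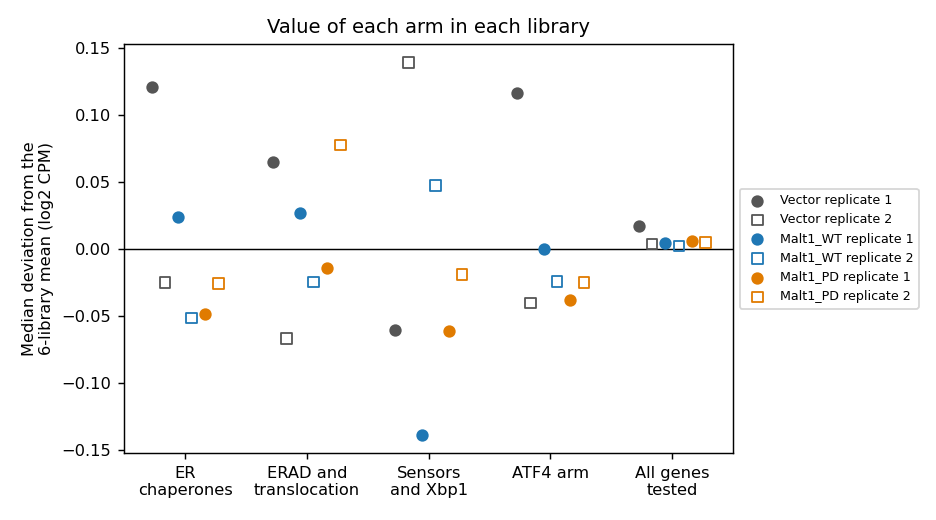
Median deviation of each arm from the 6-library mean (y axis, log2 CPM) in each library, with circles for replicate 1 and open squares for replicate 2, and all genes tested at the right. Vector replicate 1 stands at 0.12 in both the ER chaperone arm and the ATF4 arm, away from the other 5 libraries, which lie between -0.05 and 0.02.

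Between the Malt1 forms no member differed at an unadjusted p under 0.05 by edgeR. In Malt1_PD against Malt1_WT 0 members were higher (1.08% of all genes) and 0 were lower (0.838% of all genes) at that level, 22 of 36 lay below 0, and the median was -0.02 against -0.0016 over all genes. Libraries did not overlap for Chac1 and Mthfd2 on the higher side (2 members, against 16.0% of all genes). On the lower side they did not overlap for Hyou1, Dnajb9, Dnajc3, Pdia4, Canx, Edem1 and Trib3 (7 members, against 16.1% of all genes). Dnajb9 had the smallest p, with a log2 fold change of -0.22 ± 0.10 (edgeR unadjusted p = 0.0547, adjusted p = 1.00). Ppp1r15a stood at -0.15 ± 0.11, Trib3 at -0.12 ± 0.10, Pdia4 at -0.09 ± 0.07, Dnajc3 at -0.09 ± 0.08, Edem1 at -0.08 ± 0.08, Hyou1 at -0.08 ± 0.07 and Atf5 at -0.08 ± 0.13. On the other side stood Mthfd2 at 0.06 ± 0.08 and Sec61b at 0.07 ± 0.14. The regulators Hspa5 (-0.05 ± 0.08), Atf4 (-0.05 ± 0.12), Ddit3 (-0.04 ± 0.17), Atf6 (0.01 ± 0.12), Ern1 (0.02 ± 0.14), Eif2ak3 (-0.02 ± 0.12) and Xbp1 (0.00028 ± 0.08) lay within 1 standard error of 0. The medians were -0.04 for the chaperones and -0.04 for the ATF4 arm.

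Further genes of the same pathways, in 7 lists of 114 genes of which 108 were tested, also gave 0 calls. In the mean of both forms against Vector 75 of the 108 (69.4%) lay below 0, against 50.5% of all genes tested, with a median of -0.06. At an unadjusted p under 0.05, 15 were lower (5.40% of all genes) and 0 were higher (4.45% of all genes). The 18 further ER folding genes had a median of -0.08, and 14 lay below 0. Calu, a calcium-binding ER protein, stood at 1067 and 1070 CPM in Vector, 889 and 883 in Malt1_WT, and 891 and 906 in Malt1_PD, a log2 fold change of -0.26 ± 0.06 (edgeR adjusted p = 0.180). Ero1l, the oxidase that recharges disulphide isomerases, stood at 375 and 418 CPM in Vector, 321 and 338 in Malt1_WT, and 305 and 318 in Malt1_PD, a fold change of -0.31 ± 0.07 (edgeR adjusted p = 0.215). For both genes the Vector pair lay above the other 4 libraries. The 18 translocation and secretion genes had a median of -0.09 with 14 below 0, and those with the smallest p were Srpr, the receptor of the signal recognition particle (-0.24 ± 0.07), and Sec11c, a signal peptidase subunit (-0.29 ± 0.10). The 15 further ERAD genes tested had a median of -0.01 with 9 below 0 (Edem2 at -0.21 ± 0.09 and Ufd1 at -0.17 ± 0.08), and the 15 further sensors and regulators a median of 0.00011 with 7 below 0 (Nck1 at -0.18 ± 0.08 and Creb3l1 at -0.29 ± 0.27).

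On the side of ATF4, the 13 further regulators and stress factors tested had a median of -0.13 for both forms, and 11 lay below 0. Gdf15, a secreted stress cytokine, stood at 18.9 and 17.3 CPM in Vector, 11.2 and 10.8 in Malt1_WT, and 11.6 and 9.69 in Malt1_PD. Its libraries separated Vector from both Malt1 forms by more than the spread within any group, with a log2 fold change of -0.74 ± 0.12 (edgeR unadjusted p = 0.00024, adjusted p = 0.0834). Gdf15 was called with the DESeq2 Wald test (adjusted p = 0.0110), where 80 of 13537 genes were called. In edgeR it was called with the length trend removed (-0.71, adjusted p = 0.0163), where 210 of 14675 genes were called. The same held without the low-count filter (255 of 28063 genes called) and with the replicate block (52 of 14675). It was not called with limma-voom (adjusted p = 0.0849) or in edgeR with DESeq2 size factors (adjusted p = 0.0901). With libraries left out it ranged from -0.81 to -0.68. Nupr1, a stress-induced chromatin protein, stood at 44.2 and 37.4 CPM in Vector, 30.3 and 31.1 in Malt1_WT, and 33.6 and 33.0 in Malt1_PD, a fold change of -0.35 ± 0.09 (edgeR adjusted p = 0.256). The 16 amino acid supply genes tested had a median of -0.04 with 9 below 0, led by the transporter genes Slc1a5 (-0.17 ± 0.07) and Slc3a2 (-0.13 ± 0.07). The 13 aminoacyl-tRNA synthetase genes, with Xpot, had a median of -0.07 with 11 below 0, and Cars (-0.16 ± 0.07) and Nars (-0.15 ± 0.07) had the smallest p.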

How the data were processed

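Whole-number counts per gene, not normalised, were deposited by the authors for 28063 genes in the 6 libraries. The submitters' processing notes name Trim Galore 0.6.0, STAR 2.7.3a, featureCounts 1.6.3 and build GRCm38.p6. The kit was directional, per the labels' protocols, but the strand setting of the counting is not given in the sources used here. Gene length was deposited beside the counts, and 6 per-sample columns of other values were not used. Symbols turned into dates (25) were restored from gene identifiers, and 28056 identifiers matched GENCODE M21 (GRCm38), the source of gene coordinates.

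Counts were filtered with filterByExpr by group, which left 14675 genes, and scaled by TMM. A quasi-likelihood model (glmQLFit, glmQLFTest; edgeR 4.0.16, R 4.3.3) took all 6 libraries together, with group as its one factor. Calls were made at a Benjamini-Hochberg adjusted p under 0.05 across every gene tested. A standard error is the size of the log2 fold change over the root of its F. CPM are scaled by TMM, RPKM also by the deposited length, and means carry the SD over 2 libraries. Simulated counts without a length trend were put through the fit as a check of the code. That check does not cover the length trend of these libraries. With 2 libraries per group and a common coefficient of variation of 10.1%, the fit has 3 residual degrees of freedom per gene. The quasi-likelihood test also borrows information on the spread from the other genes, so its p-values do not rest on those 3 alone. The floor for a gene, 3 counts, equals 0.150 to 0.214 CPM, and covers counting error only.

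The members and lists were chosen with earlier results of these data known, so no test over a list was run. By rule, Hspa5, Xbp1, Atf4, Ddit3, Atf6, Ern1, Eif2ak3 and Malt1 are named in every comparison, with every called member, the 4 chaperones, 2 ERAD or translocation genes and 4 ATF4-arm genes with the smallest p, and 2 genes of each further list. Other members are given by level and range. Alternatives were limma-voom (limma 3.58.1), the Wald test of DESeq2 1.42.0, its size factors in edgeR, all genes without a filter, a fit of only those groups that are compared, replicate number as a block, a loess trend on gene length removed from each library, and leaving out each library. Leaving out Vector replicate 1 and Malt1_WT replicate 1 together was added after seeing the data. A planned check of protein tails was not run, because no protein table was used here.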

Additional observations from a re-analysis of the deposited data

How the results depend on the processing

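Over 14 alternatives, 80 results for named genes were recomputed. Members called numbered 0 in every comparison with DESeq2 size factors, the DESeq2 Wald test, limma-voom, only the groups compared and the replicate block. For both forms against Vector 1 member, Sdf2l1, was called without the low-count filter and with the length trend removed. With libraries left out, members called ranged from 0 to 5 in Malt1_WT against Vector, 0 to 7 in Malt1_PD against Vector, 0 to 1 between the forms and 0 to 6 for both forms. The fits with the most members called also called many genes outside the set, so these counts are not read as a pathway result. The upper ends came without Vector replicate 1 and Malt1_WT replicate 1, where the spread rests on the Malt1_PD pair. With 1 library left out they came to 2, 4, 0 and 5, without Vector replicate 2.

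Genes called higher and lower in Malt1_WT against Vector, Malt1_PD against Vector and both forms against Vector, in that order, numbered 52 and 61, 94 and 94, and 114 and 141 without the low-count filter; 14 and 17, 20 and 23, and 32 and 48 with the DESeq2 Wald test; and 26 and 28, 35 and 60, and 87 and 123 with the length trend removed. Between the forms 11 were called higher without the low-count filter. With libraries left out, genes called ranged from 1 to 468 higher and 0 to 502 lower, from 0 to 948 and 0 to 1132, and from 1 to 797 and 0 to 969, and between the forms from 0 to 146 and 1 to 212. The cause of these shifts was not tested.

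With the replicate number as a block, calls came to 4 and 2, 3 and 6, and 20 and 32, and no member was called. Same-numbered libraries deviated together in Vector and Malt1_WT (r = 0.68) but not in Vector and Malt1_PD (r = -0.0097) or Malt1_WT and Malt1_PD (r = 0.03), so the numbers were not taken to pair the libraries.

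With libraries left out, the chaperone median ranged from -0.13 to 0.013 in Malt1_WT against Vector, -0.15 to 0.0011 in Malt1_PD against Vector and -0.14 to 0.010 for both forms. The ATF4 arm ranged from -0.094 to 0.041, -0.14 to 0.0040 and -0.12 to 0.020, and the sensors and Xbp1 from -0.19 to 0.027, -0.14 to 0.034 and -0.14 to 0.034. The ERAD group ranged from -0.063 to 0.072 in Malt1_PD against Vector and from -0.064 to 0.067 for both forms. Among named genes, 11 of 80 results changed sign in some fit by more than 1 standard error. Atf4 ranged from -0.18 to 0.12 in Malt1_WT against Vector, -0.23 to 0.066 in Malt1_PD against Vector, -0.16 to 0.065 between the forms and -0.20 to 0.089 for both forms. Ern1 ranged from -0.22 to 0.092, -0.19 to 0.11 and -0.20 to 0.10 in the 3 contrasts with Vector. Eif2ak3 ranged from -0.15 to 0.15 in Malt1_WT against Vector and between the forms, and Sec61b from -0.27 to 0.088 and -0.086 to 0.23. With all libraries 0 of these results were called.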
